A study of Mus musculus with 16 samples.

Results

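The insulin-like growth factor (IGF) system was examined through 9 genes in cultured aortic smooth muscle cells of the mouse. These are the ligand gene Igf1, the receptor genes Igf1r and Igf2r, and the binding protein genes Igfbp2, Igfbp3, Igfbp4, Igfbp5, Igfbp6 and Igfbp7. They were taken by gene symbol from a table of 20581 genes, each of the 9 symbols had 1 row, and all 9 genes passed the filter on low counts that left 14217 genes for testing. Total RNA of primary C57BL/6J smooth muscle cells, labelled male, gave 16 sequencing libraries, which fall into 4 groups of 4. The donors of the cells were RBC.ARG1-KO mice (here KO) and litter mate controls, RBC.ARG1-WT (here WT). KO mice combine ARG1 flox/flox alleles with the ErCre tg transgene, whose Cre recombinase follows the erythropoietin receptor gene, so that Arg1 is lost from the erythroid lineage. Control cultures stayed in DMEM with 10% fetal bovine serum. In the others, cells at 80% confluency spent 10 days in DIAM, a DMEM that holds 0.1 µM dexamethasone, 1 µM insulin and 50 µg/mL L-ascorbic acid and that is meant to make the cells store lipid. The labels do not say whether serum stayed in DIAM. Neither the age of the mice nor the alleles of the WT mice are stated in the labels.

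IGF1 is a secreted growth factor that binds the IGF1 receptor, a tyrosine kinase whose signal runs through the insulin receptor substrates and the kinases PI3K and AKT, and in vessel walls it is known for supporting growth and survival of smooth muscle cells. The IGF2 receptor, also the cation-independent mannose 6-phosphate receptor, carries lysosomal enzymes and takes IGF2 to lysosomes for breakdown. IGF binding proteins hold IGFs in the extracellular space and lengthen or block their action, and proteases such as PAPP-A release the ligand by cutting them.

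The strongest rise and the strongest fall among these genes belonged to binding proteins, Igfbp6 and Igfbp2, and the ligand gene and Igf2r fell as well. Promoters of these 4 genes are shown because their transcripts moved most clearly with the medium. Each is the RefSeq window from 250 bases before to 50 bases after the annotated start (build GRCm38.p6), written 5′ to 3′ on the strand of the gene. Capitals mark every match on either strand to AGAACA (a glucocorticoid receptor half-site), CACGTG (an E-box) or TATAAA (the TATA box, which reads TTTATA on the opposite strand).
Igfbp2, chr1:72824230-72824529, plus strand: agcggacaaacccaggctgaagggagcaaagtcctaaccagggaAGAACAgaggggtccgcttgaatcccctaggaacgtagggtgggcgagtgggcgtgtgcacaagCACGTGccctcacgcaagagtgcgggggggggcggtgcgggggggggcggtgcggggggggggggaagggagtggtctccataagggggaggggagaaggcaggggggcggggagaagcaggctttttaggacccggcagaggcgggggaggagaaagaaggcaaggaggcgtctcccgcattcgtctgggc
Igfbp6, chr15:102143936-102144235, plus strand: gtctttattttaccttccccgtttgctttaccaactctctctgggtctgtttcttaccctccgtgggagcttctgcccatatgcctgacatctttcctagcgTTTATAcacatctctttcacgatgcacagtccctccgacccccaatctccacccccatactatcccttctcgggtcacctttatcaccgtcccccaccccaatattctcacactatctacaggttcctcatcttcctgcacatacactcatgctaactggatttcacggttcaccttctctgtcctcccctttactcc
Igf1, chr10:87860861-87861160, plus strand: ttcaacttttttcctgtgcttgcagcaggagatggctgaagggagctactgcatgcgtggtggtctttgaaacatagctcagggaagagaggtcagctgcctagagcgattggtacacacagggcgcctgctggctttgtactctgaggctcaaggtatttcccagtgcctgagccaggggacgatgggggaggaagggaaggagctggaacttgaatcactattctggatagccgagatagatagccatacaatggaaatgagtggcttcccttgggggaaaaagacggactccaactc
Igf2r, chr17:12769657-12769956, minus strand: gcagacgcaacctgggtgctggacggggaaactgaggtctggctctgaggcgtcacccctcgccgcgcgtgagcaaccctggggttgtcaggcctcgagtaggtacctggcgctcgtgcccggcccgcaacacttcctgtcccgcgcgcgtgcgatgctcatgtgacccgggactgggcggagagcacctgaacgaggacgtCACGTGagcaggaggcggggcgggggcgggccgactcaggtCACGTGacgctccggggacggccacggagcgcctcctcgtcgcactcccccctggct

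All 9 genes had an entry in the promoter table, with 10 windows in all because Igfbp2 has 2. Both strands were searched in the 10 windows and in all 32851 promoters of the table. AGAACA was found in 1 of the 10, the first Igfbp2 window at position -206 from the start, and in 19.0% of all promoters. CACGTG was found in the same Igfbp2 window at -142 and at -48 and -7 in the Igf2r window, against 7.15% of all promoters. TATAAA lay at -28 in the Igfbp4 window and on the opposite strand at -148 in the Igfbp6 window, against 13.6% of all promoters. The full palindromic glucocorticoid response element (AGAACA and, after 3 free bases, its reverse complement), the FoxO core site GTAAACA and the insulin response core CAAAACA were in none of the 10 windows and in 0.00913%, 3.65% and 6.28% of all promoters. These are matches of letters within 300 bases and say nothing about binding. The windows ranged in GC content from 49.7% for Igfbp6 to 76.0% for Igf1r, with a median of 52.7% over all promoters.

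The libraries held between 37221192 and 47626331 estimated counts each, and the 9 genes had between 743 and 69097 counts per library. Levels below are counts scaled to library size by the trimmed-mean (TMM) method, written CPM. A gene is said to rise, fall or change where edgeR's quasi-likelihood test, fitted over all 16 libraries, gave a Benjamini-Hochberg adjusted p under 0.05 over all 14217 genes. Each log2 fold change is given ± its approximate SE. The labels call the replicates biological, but do not say which libraries came from which animal. Arg1 itself had 0 to 49 counts per library, and since its deletion is not in smooth muscle cells these counts do not check the genotype labels. Smooth muscle markers were present everywhere, with Acta2 at 522 to 2320 CPM and Myh11 at 51.3 to 187 CPM, and macrophage markers summed to 886 to 2532 CPM. Xist was at 102 to 326 CPM in every library although all are labelled male. The Y-linked genes looked up (Ddx3y, Uty, Kdm5d and Eif2s3y) had no row among the genes as used here, whose filters are not known. WT library 2 in DIAM stood apart from its group, with the highest Schwann cell marker sum of all libraries (732 CPM). Log2 fold changes of members that rest on it are therefore given with and without it. In such bulk samples, fewer cells of a type and less RNA per cell cannot be told apart. Libraries were unstranded, so reads of the antisense genes Airn (0.931 to 2.84 CPM) and Igf1os (0 to 0.181 CPM) cannot be told apart from those of Igf2r and Igf1 where they overlap.

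The medium moved 5 of the 9 genes in WT cells, and the same number in KO cells. Igf1, Igf2r and Igfbp2 fell and Igfbp3 and Igfbp6 rose in both genotypes. Igf1r, Igfbp4, Igfbp5 and Igfbp7 did not pass the test in either. Across all genes tested, 55.1% were called in WT cells and 60.7% in KO cells, so 5 of 9 is near the background of each comparison. Libraries in DMEM and DIAM did not overlap for the same 5 genes in each genotype, where 49% of all genes tested did not overlap in WT cells and 55.1% in KO cells. The median absolute log2 fold change was 0.80 over the 9 genes against 0.29 over all genes in WT cells, and 0.65 against 0.34 in KO cells. Because the 9 genes were chosen with earlier results of these data known, these medians describe them and test nothing.

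**Figure D1:**
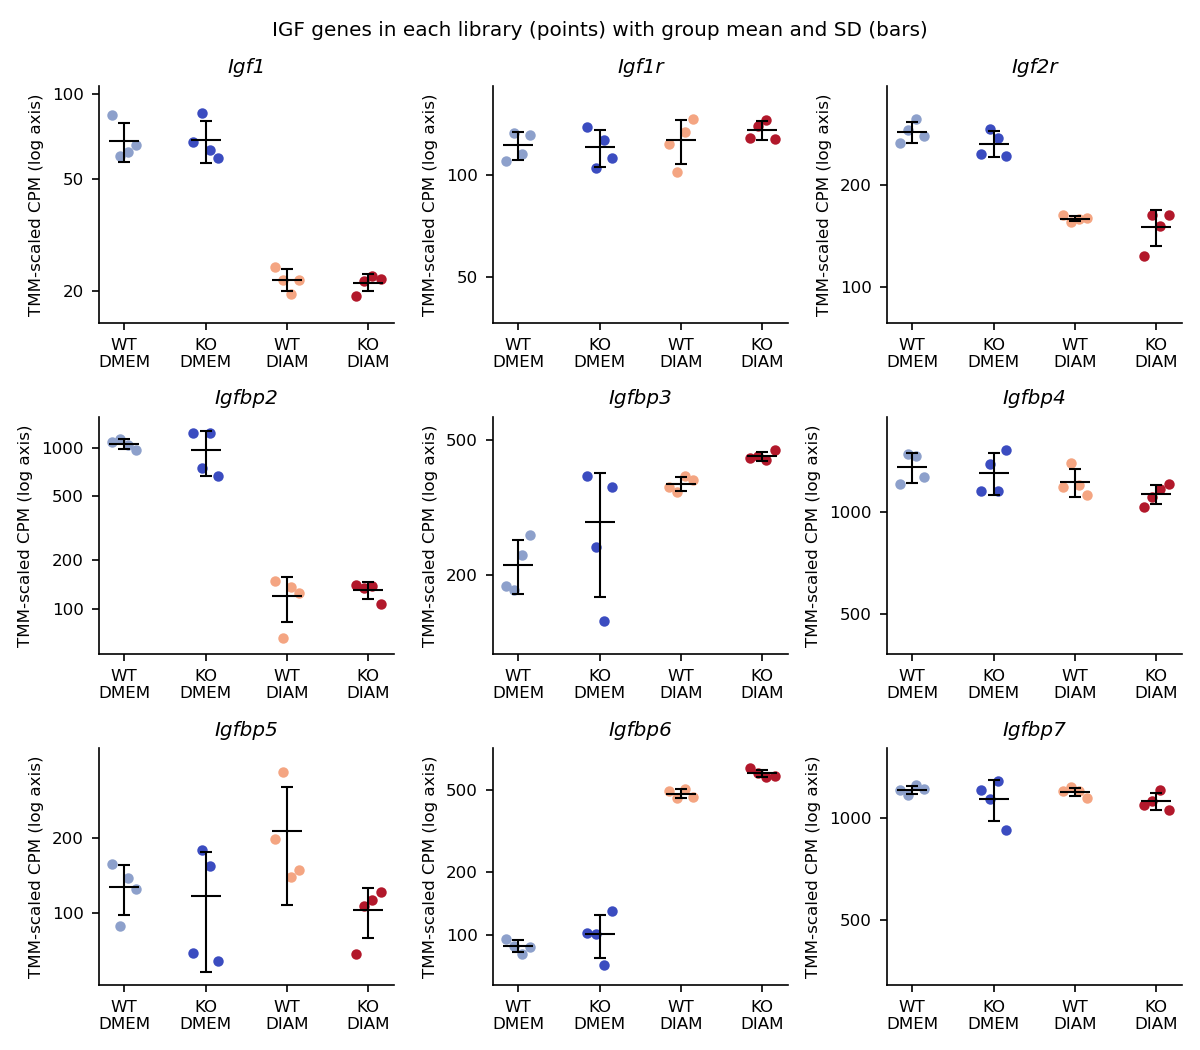
TMM-scaled CPM (log axes) of the 9 genes in each of the 16 libraries (points), with the mean and SD of the 4 libraries of a group (bars). Igf1, Igf2r and Igfbp2 sit lower and Igfbp3 and Igfbp6 higher in every DIAM library than in every DMEM library of the same genotype, and Igfbp5 is spread widely within groups.

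**Figure D2:**
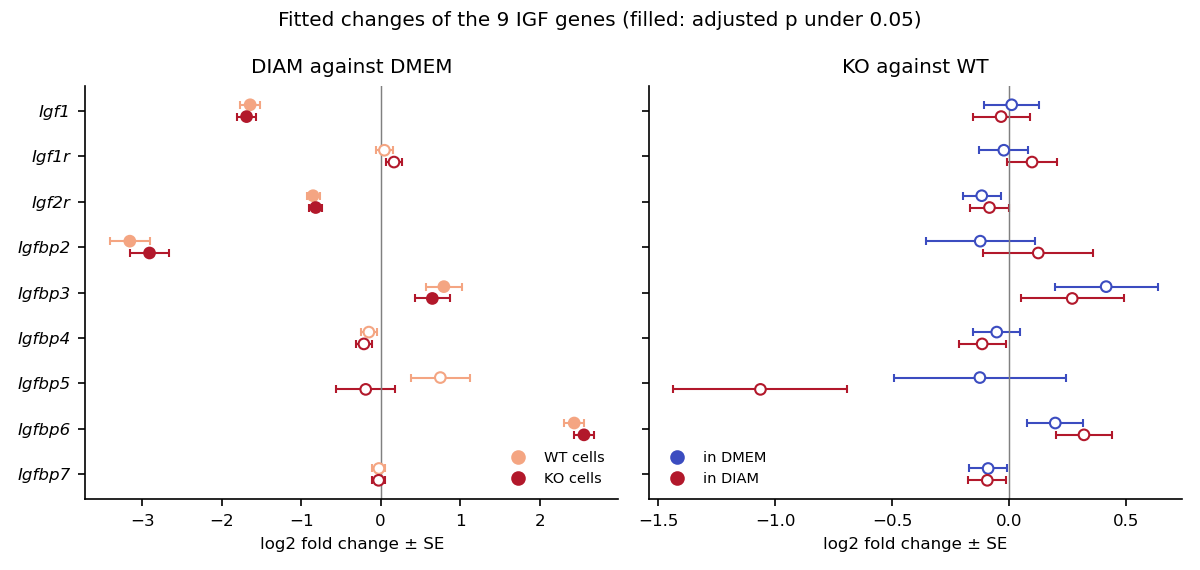
Log2 fold changes with SE from the edgeR fit for the medium (left) and the genotype (right), filled where the adjusted p was under 0.05. The 5 genes that changed with the medium did so in both genotypes, and no gene is filled in the genotype panel.

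Among ligand genes, Igf1 was the one in the set. In WT cells it stood at 84.7, 60.3, 62.7 and 65.9 CPM in DMEM and at 24.4, 21.9, 19.6 and 21.8 CPM in DIAM. In KO cells it stood at 67.5, 85.8, 63.3 and 59.2 CPM in DMEM and at 19.2, 21.8, 22.6 and 22.1 CPM in DIAM. Every DIAM library thus lay below every DMEM library, and WT and KO values were interleaved in both media. The log2 fold change was -1.64 ± 0.12 in WT cells (adjusted p = 1.33e-08, edgeR) and -1.69 ± 0.12 in KO cells (adjusted p = 7.9e-09), a 3.12-fold and a 3.22-fold fall. The 10 macrophage markers summed to 886 to 1908 CPM in DMEM and 962 to 1670 CPM in DIAM in WT cells. In KO cells they summed to 1172 to 2532 and 1210 to 1591 CPM. Of these markers 2 rose and 2 fell in WT cells, and 0 rose and 5 fell in KO cells. On log2 deviations from the group means, Pearson's r of Igf1 with this sum was 0.668 (permutation p = 0.0334, adjusted 0.172 over 72 relations). Spearman's rho was 0.7 (adjusted 0.0696). The part of these cells was not tested. Igf2, the other IGF ligand, averaged 87.0 ± 25.9 CPM in DMEM and 79.4 ± 8.71 CPM in DIAM in WT cells (SD, n = 4) and did not pass the test in either genotype (edgeR adjusted p = 0.71 in WT and 0.103 in KO cells).

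Of the receptor genes, Igf1r, which encodes the signalling receptor, was level across the design. It ranged from 102 to 146 CPM over the 16 libraries, and all 4 groups overlapped. Its log2 fold change with DIAM was 0.05 ± 0.11 in WT cells (edgeR adjusted p = 0.725, 95% interval -0.18 to 0.28) and 0.17 ± 0.11 in KO cells (adjusted p = 0.179, 95% interval -0.06 to 0.40). Igf2r, the clearance and sorting receptor, fell. It was at 265, 290, 312 and 277 CPM in WT cells in DMEM and at 163, 156, 158 and 159 CPM in DIAM. The KO libraries gave 247, 291, 275 and 243 CPM in DMEM and 123, 162, 151 and 162 CPM in DIAM. No DIAM library reached the lowest DMEM library. The log2 fold change was -0.85 ± 0.08 in WT cells (adjusted p = 2.75e-07, edgeR) and -0.82 ± 0.08 in KO cells (adjusted p = 3.51e-07). Insr, the insulin receptor gene of the same family, rose. WT cells averaged 42.7 ± 5.08 CPM in DMEM and 69.7 ± 8.75 in DIAM (log2 fold change 0.71 ± 0.09, edgeR adjusted p = 5e-06). The KO averages were 40.6 ± 0.714 and 92.5 ± 5.82 CPM (1.19 ± 0.09, adjusted p = 1.06e-08).

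Igfbp2 encodes a binding protein with an integrin-binding motif and was among the abundant members in DMEM. Its levels in WT cells were 1087, 1143, 1048 and 972 CPM in DMEM and 149, 65.2, 137 and 126 CPM in DIAM. In KO cells they were 1233, 753, 1249 and 669 CPM in DMEM and 140, 135, 139 and 107 CPM in DIAM. The 2 media were far apart in both genotypes, and the KO libraries in DMEM formed a higher and a lower pair. The log2 fold change was -3.15 ± 0.25 in WT cells (adjusted p = 6.4e-08, edgeR), an 8.91-fold fall, and -2.91 ± 0.25 in KO cells (adjusted p = 1.13e-07), a 7.50-fold fall. Without WT library 2 in DIAM, the lowest of all, the fall in WT cells was -2.95 ± 0.21 on the log2 scale (adjusted p = 3.03e-08). The summed level of 10 smooth muscle markers moved with Igfbp2. It lay between 3085 and 3990 CPM in WT cells in DMEM and between 1168 and 1895 CPM in DIAM, and between 2465 and 4169 CPM and between 1325 and 2287 CPM in KO cells. Of these markers 4 fell and 1 rose in WT cells and 4 fell and 2 rose in KO cells. None of the 10 was at 0 in all libraries, and their part in the result was not tested.

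Igfbp6 encodes a binding protein that prefers IGF2 over IGF1. Its level in WT cells was 96.1, 88.6, 81.5 and 88.0 CPM in DMEM and 494, 456, 502 and 462 CPM in DIAM. In KO cells it was 103, 101, 72.0 and 130 CPM in DMEM and 634, 602, 576 and 581 CPM in DIAM. The lowest DIAM library, at 456 CPM, stood far above the highest DMEM library, at 130 CPM. The log2 fold change was 2.43 ± 0.13 in WT cells (adjusted p = 1.99e-10, edgeR), a 5.41-fold rise, and 2.56 ± 0.13 in KO cells (adjusted p = 1e-10), a 5.89-fold rise. Within each library the ratio of Igfbp6 to Igfbp2 counts averaged 0.0836 ± 0.00688 (WT) and 0.118 ± 0.0607 (KO) in DMEM, and 4.41 ± 1.74 and 4.64 ± 0.551 in DIAM. The order of these 2 genes was thus reversed in all 8 DIAM libraries.

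Igfbp3, the main IGF carrier of blood plasma, rose more modestly. WT cells gave 185, 181, 228 and 262 CPM in DMEM and 364, 351, 392 and 381 CPM in DIAM. KO cells gave 392, 241, 146 and 364 CPM in DMEM and 443, 448, 435 and 467 CPM in DIAM. The KO libraries in DMEM were the most scattered group, with 2 libraries at the level of WT cells in DIAM. The log2 fold change was 0.80 ± 0.22 in WT cells (adjusted p = 0.00681, edgeR) and 0.65 ± 0.22 in KO cells (adjusted p = 0.0193). The call in KO cells was lost without KO library 2 in DMEM (0.58 ± 0.24, adjusted p = 0.0542) and in a fit of only the 2 groups compared (0.66 ± 0.27, adjusted p = 0.065).

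The summed level of 8 mesothelial markers moved with Igfbp3 between libraries of a group. It was 358, 94.7, 67.5 and 367 CPM in KO libraries 1 to 4 in DMEM, so that the same 2 libraries were high for both. It ranged from 93.2 to 187 CPM in WT cells in DMEM, from 125 to 344 CPM in WT cells in DIAM and from 215 to 717 CPM in KO cells in DIAM. On log2 deviations from the group means over the 16 libraries, Pearson's r was 0.78 (permutation p = 0.00015, 0.009 after adjustment over 72 relations of 9 genes with 8 marker lists) and Spearman's rho was 0.809 (permutation p = 0.00054, adjusted 0.0389). Without the 2 libraries farthest from the median in marker sum, KO library 3 in DMEM and WT library 2 in DIAM, r was 0.741. None of the 8 markers was at 0 in all libraries, and their part in the result was not tested.

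Igfbp5 encodes a binding protein that attaches to extracellular matrix. It differed widely between libraries of the same group. WT cells gave 157, 88.7, 139 and 125 CPM in DMEM and 198, 370, 140 and 149 CPM in DIAM. KO cells gave 68.8, 180, 154 and 64.1 CPM in DMEM and 68.6, 106, 113 and 122 CPM in DIAM. The media overlapped in both genotypes, and the highest value was that of WT library 2 in DIAM. The log2 fold change with DIAM was 0.75 ± 0.37 in WT cells (edgeR adjusted p = 0.0989) and -0.19 ± 0.37 in KO cells (adjusted p = 0.681). Without WT library 2 in DIAM the WT value was 0.35 ± 0.34 (adjusted p = 0.407).

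The summed level of 8 Schwann cell markers moved with Igfbp5. In library order it was 88.5, 25.4, 62.3 and 41.9 CPM in WT cells in DMEM and 470, 732, 304 and 296 CPM in DIAM. In KO cells it was 19.3, 128, 30.5 and 34.4 CPM in DMEM and 28.5, 101, 154 and 174 CPM in DIAM. The libraries ranked the same way for both measures in WT cells in DMEM and in KO cells in DIAM, and nearly so in WT cells in DIAM. They differed most in KO cells in DMEM, where the library lowest in Igfbp5 had the second highest marker sum. On deviations from the group means r was 0.789 (permutation p = 0.00025, adjusted 0.009 over the 72 relations) and rho 0.768 (permutation p = 0.00124, adjusted 0.0446). Without the 2 farthest libraries, KO library 2 in DMEM and KO library 1 in DIAM, r was 0.732. WT library 2 in DIAM, the highest in both measures, was kept there, and r without it was not computed. None of the 8 markers was at 0 in all libraries, and Sox10, the glial transcription factor, ranged from 1.21 to 69.9 CPM. The part of these cells in the result was not tested. Igfbp5 also ran against the sum of the adipocyte markers (r = -0.771, permutation p = 0.00063, adjusted 0.0151, and rho = -0.756, adjusted 0.0675). Here r was -0.573 without the 2 farthest libraries, KO library 2 in DMEM and WT library 2 in DIAM. Igfbp2 with smooth muscle markers was the last relation to pass on r (0.888, permutation p = 0.00233, adjusted 0.0419, with rho = 0.803, adjusted 0.0835). Its r was 0.866 without the 2 farthest libraries, WT library 2 and KO library 4 in DIAM. These relations were computed after the levels had been seen.

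**Figure D3:**
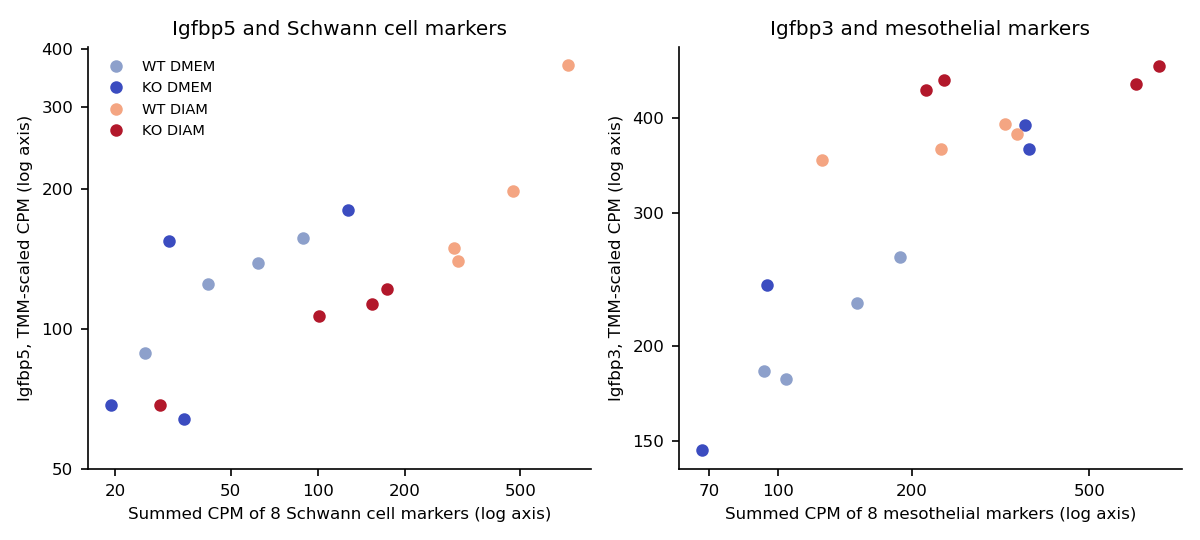
Igfbp5 against the summed CPM of 8 Schwann cell markers (left) and Igfbp3 against that of 8 mesothelial markers (right), 1 point per library, log axes, coloured by group. Within groups the libraries with more marker signal tend to have more of the binding protein transcript, with WT library 2 in DIAM at the top right for Igfbp5.

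Igfbp4 and Igfbp7 were the abundant and level members. Igfbp4, a binding protein cut by PAPP-A, ranged from 1035 to 1521 CPM over the 16 libraries. Its log2 fold change was -0.15 ± 0.10 in WT cells (edgeR adjusted p = 0.225) and -0.21 ± 0.10 in KO cells (adjusted p = 0.0802). The KO value passed without KO library 1 in DMEM (-0.26, adjusted p = 0.0396) or KO library 3 in DMEM (-0.26, adjusted p = 0.0354). Igfbp7, a related secreted protein that binds IGFs weakly, ranged from 918 to 1284 CPM, and all 4 groups overlapped. Its log2 fold change was -0.02 ± 0.08 in both genotypes (adjusted p = 0.842 in WT and 0.806 in KO cells, edgeR), with 95% intervals of -0.20 to 0.15.

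Levels of different genes were compared after division by the summed exon length of the annotation. In WT cells in DMEM, Igfbp7 stood at 1000 ± 28.3 CPM per kb and Igfbp2 at 575 ± 38.8. Next came Igfbp4 at 306 ± 31.1, Igfbp6 at 79.6 ± 5.37 and Igfbp3 at 68.4 ± 12.3 CPM per kb. Lower were Igf2r at 30.7 ± 2.19, Igfbp5 at 21.2 ± 4.82, Igf1r at 7.27 ± 0.68 and Igf1 at 6.90 ± 1.12 CPM per kb. Neighbours in this order whose library ranges overlapped were Igfbp6 with Igfbp3 (73.3 to 86.4 against 57.8 to 83.8 CPM per kb) and Igf1r with Igf1 (6.55 to 7.91 against 6.09 to 8.55). In WT cells in DIAM, Igfbp6 came directly after Igfbp7, at 431 ± 20.6 against 985 ± 28.6 CPM per kb. Igfbp2 had dropped below Igfbp3, at 64.6 ± 20.3 against 119 ± 5.75 CPM per kb, and Igf1 lay at 2.21 ± 0.199 CPM per kb, below Igf1r at 7.51 ± 1.11. KO cells in DIAM had Igfbp6 at 538 ± 23.7 and Igfbp2 at 70.5 ± 8.4 CPM per kb.

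The 6 binding protein transcripts added up to 2051 ± 40.8 CPM per kb in WT cells in DMEM and 1911 ± 54.9 in DIAM, and to 1965 ± 217 and 1948 ± 49.5 CPM per kb in KO cells. Their make-up shifted within this sum. Igfbp2 went from 28.1 ± 1.68% to 3.39 ± 1.07% of it in WT cells and from 26.4 ± 5.65% to 3.61 ± 0.374% in KO cells. Igfbp6 went from 3.89 ± 0.312% to 22.5 ± 1.03% and from 4.77 ± 1.6% to 27.6 ± 1.52%. Igfbp7 made up 48.8 ± 1.59% in DMEM and 51.5 ± 0.479% in DIAM in WT cells. With the length of the longest coding transcript in place of all exons, the sum was 2363 ± 52.8 CPM per kb in DMEM and 2022 ± 55.4 in DIAM in WT cells, so how level the sum is depends on the length used. Shares of a fixed whole cannot vary independently of one another.

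**Figure D4:**
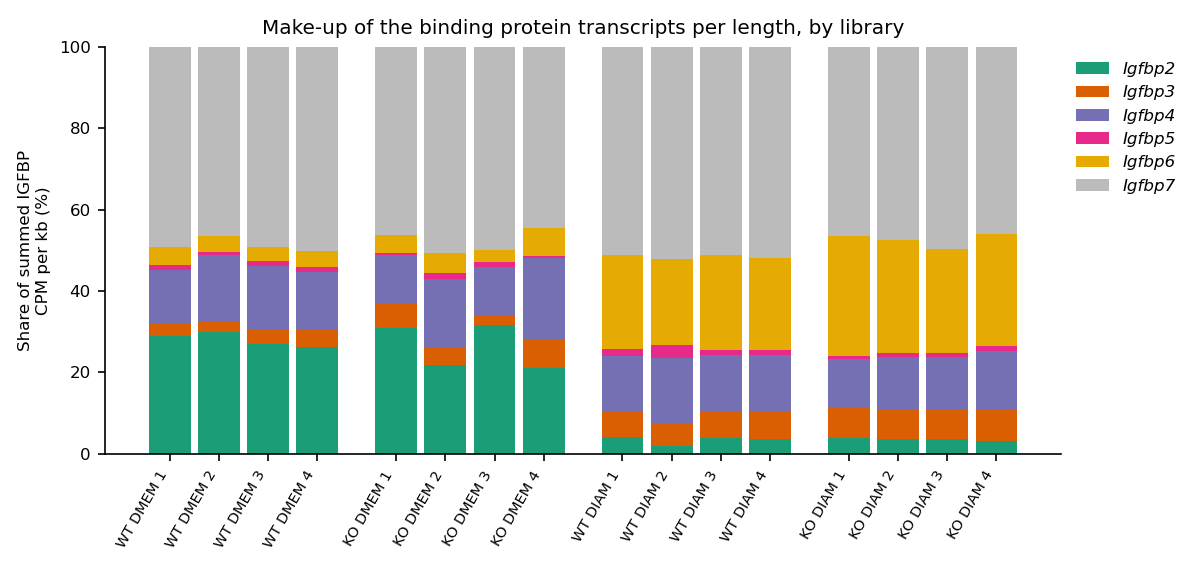
Share of each binding protein gene in the summed CPM per kb of exon of the 6 genes, 1 bar per library. Igfbp2 takes 21.2% to 31.6% of the bar in the DMEM libraries and 1.81% to 4.19% in the DIAM libraries, and Igfbp6 3.03% to 6.86% and 21.0% to 29.5%.

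Between the genotypes no member passed edgeR's test in DMEM. The largest log2 difference of KO from WT cells was that of Igfbp3, at 0.42 ± 0.22 (edgeR adjusted p = 1), and no group pair was free of overlap. None of the 9 was under an unadjusted p of 0.05, and DESeq2, limma on log2(CPM + 1) and the authors' deposited table also called 0. Of all genes tested 0% were called in this comparison, with 438 genes under an unadjusted p of 0.05, and 1.6% did not overlap. The intervals still allow sizeable differences for the scattered genes, such as -0.93 to 0.68 on the log2 scale for Igfbp5.

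In DIAM, 3 of the 9 genes did not overlap between KO and WT libraries, where 16.4% of all genes tested did not. Igfbp6 was higher in KO cells (576 to 634 against 456 to 502 CPM), Igfbp3 was higher (435 to 467 against 351 to 392 CPM) and Igfbp5 was lower (68.6 to 122 against 140 to 370 CPM). An exact two-sided permutation test gives every gene without overlap p = 0.0286, the smallest that 4 against 4 libraries allow. For these 3 genes it thus only restates the lack of overlap, and it is not adjusted over the 9 genes. Across all genes 8.38% were called by edgeR's test, and none of the 9 was. Igfbp6 had a log2 difference of 0.32 ± 0.12 (adjusted p = 0.102, edgeR), Igfbp3 of 0.27 ± 0.22 (adjusted p = 0.481) and Igfbp5 of -1.06 ± 0.37 (adjusted p = 0.0895). Under an unadjusted p of 0.05 were 2 of the 9, Igfbp5 and Igfbp6, and 3652 of the 14217 genes tested, and DESeq2 and limma on log2(CPM + 1) called 0.

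The authors' deposited table calls 2 of these genes in DIAM, with nearly the same log2 differences. It lists Igfbp6 at 0.33 (adjusted p = 1.23e-05), Igfbp3 at 0.28 (adjusted p = 7.89e-05) and Igfbp5 at -1.06 (adjusted p = 0.0595). The labels do not state the model behind the deposited values. An edgeR fit of only the 2 DIAM groups called 0 of all genes tested, so its 0 of the 9 says nothing particular about them. The SD of Igfbp3 was 39.8% of the mean in KO cells in DMEM and 3.05% in KO cells in DIAM, and that of Igfbp6 was 23.5% and 4.41%; edgeR's main fit estimates 1 spread per gene over all 4 groups. By edgeR, Igfbp6 passed without KO library 3 in DMEM (0.33, adjusted p = 0.0247) or KO library 4 in DMEM (0.32, adjusted p = 0.0462). Igfbp5 was at -0.66 ± 0.34 (adjusted p = 0.35) without WT library 2 in DIAM. The Schwann cell marker sum was 28.5 to 174 CPM in the KO libraries and 296 to 732 CPM in the WT libraries in DIAM, and the mesothelial sum 215 to 717 against 125 to 344 CPM. Taken singly, 0 of 7 tested Schwann cell markers and 0 of 8 tested mesothelial markers passed edgeR's test between genotypes in DIAM. The part of these cells in the result was not tested.

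The other 6 genes showed log2 differences between -0.11 and 0.13 in DIAM. The interaction term, which tests whether the medium response differed between genotypes, called 0 of the 9 genes by edgeR, DESeq2 and limma and in the authors' deposited table. Of all genes tested 0% were called by edgeR and 2255 were under an unadjusted p of 0.05, among them none of the 9. The largest interaction was that of Igfbp5 (-0.94 ± 0.52, edgeR adjusted p = 0.395), which was -0.54 ± 0.47 (adjusted p = 0.714) without WT library 2 in DIAM. For Igf1 it was -0.05 ± 0.17 with a 95% interval of -0.41 to 0.32, and for Igfbp6 0.12 ± 0.17 with an interval of -0.25 to 0.49.

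Genes that act on or after these members were read from lists of the pathway. Counts with DIAM in all these lists are to be read against the share called over all genes tested. That share was 55.1% in WT cells and 60.7% in KO cells. Of 9 tested proteases that cut binding proteins and their inhibitors, 4 rose and 3 fell in WT cells and 3 rose and 3 fell in KO cells (median log2 fold change 0.18 and 0.05, against -0.01 and -0.02 over all genes). Pappa, which encodes PAPP-A, the protease of Igfbp4 protein, fell in both genotypes. It averaged 141 ± 7.29 CPM in DMEM against 64.6 ± 5.73 in DIAM for WT (log2 fold change -1.13 ± 0.09, edgeR adjusted p = 3.78e-08), and 129 ± 14.9 against 56.1 ± 6.59 for KO (-1.21 ± 0.09, adjusted p = 1.46e-08). Stc2, which encodes stanniocalcin 2, an inhibitor of PAPP-A, rose in both. Its averages were 3.25 ± 0.415 CPM in DMEM against 38.9 ± 10.3 in DIAM for WT (log2 fold change 3.58 ± 0.28, edgeR adjusted p = 4.97e-08), and 4.56 ± 2.19 against 24.9 ± 2.44 for KO (2.45 ± 0.27, adjusted p = 1.62e-06). Stc1, the other stanniocalcin gene, was picked for naming with its values known. It rose by 1.00 ± 0.22 on the log2 scale in WT cells (edgeR adjusted p = 0.00129) and by 1.65 ± 0.22 in KO cells (adjusted p = 1.29e-05). The serine protease gene Htra1 rose by 0.54 ± 0.11 on the log2 scale in WT cells and 0.97 ± 0.11 in KO cells, and the metalloprotease gene Adam12 fell by 0.45 and 0.54.

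Of 6 growth hormone axis genes, which act upstream of Igf1 in liver, 2 rose in each genotype, and 1 fell in WT and 0 in KO cells. Ghr, the growth hormone receptor gene, averaged 372 ± 22.4 CPM in DMEM and 290 ± 26.6 CPM in DIAM in WT cells and did not pass (edgeR adjusted p = 0.064). Socs2, a feedback inhibitor of that receptor, rose by 0.82 ± 0.07 in WT cells (edgeR adjusted p = 3.2e-08) and 0.84 ± 0.07 in KO cells on the log2 scale, and Jak2, the kinase that the receptor uses, by 0.36 ± 0.06 and 0.31 ± 0.06. Cish, another feedback inhibitor, fell by 0.92 ± 0.22 on the log2 scale in WT cells, with a value of -0.41 ± 0.22 in KO cells (adjusted p = 0.119), and the difference between genotypes did not pass the interaction test.

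Of 7 genes of mannose 6-phosphate sorting, the pathway that Igf2r serves, 3 rose and 3 fell in WT cells and 3 rose and 2 fell in KO cells. Gnptab and Gnptg, subunits of the enzyme that adds the mannose 6-phosphate tag, rose by 0.33 ± 0.08 and 0.42 ± 0.07 on the log2 scale in WT cells and by 0.47 ± 0.08 and 0.50 ± 0.07 in KO cells. Gga2, an adaptor that packs the receptors into vesicles, fell by 0.34 in WT and 0.27 in KO cells. Of 8 cell surface partners of binding proteins 2 rose and 1 fell in WT cells and 3 rose and 2 fell in KO cells. Itga5, the integrin alpha 5 gene, rose from 127 ± 11.9 to 260 ± 5.84 CPM in WT cells, and Itgav, the integrin alpha V gene, fell by 0.80 ± 0.08 on the log2 scale.

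Of 34 genes of IGF1 receptor signalling, 12 rose and 10 fell in WT cells and 14 rose and 8 fell in KO cells (median log2 fold change 0.03 and 0.09). Irs2, an insulin receptor substrate, had log2 fold changes of 0.89 ± 0.09 in WT cells (adjusted p = 3.14e-07, edgeR) and 0.83 ± 0.09 in KO cells (adjusted p = 5.64e-07), and rose in both. Its relative Irs1 went the other way and was picked for naming with its values known. It averaged 52.4 ± 9.72 CPM in WT cells in DMEM and 18.6 CPM in DIAM, a log2 fold change of -1.50 ± 0.18 (edgeR adjusted p = 3.87e-06). The change in KO cells was -1.05 ± 0.18 (adjusted p = 9.47e-05). Foxo3, a transcription factor that AKT keeps out of the nucleus, rose by 0.72 ± 0.06 and 0.96 ± 0.06 on the log2 scale in WT and KO cells. Eif4ebp1, a translation repressor that mTOR inactivates, rose by 0.73 ± 0.05 and 0.77 ± 0.05. Between the genotypes in DIAM, where 8.38% of all genes tested were called, 2 of the 34 were higher in KO cells and none lower. These were Foxo3 (0.23 ± 0.06, edgeR adjusted p = 0.0259) and Pik3r1 (0.34 ± 0.10, adjusted p = 0.0409), a regulatory subunit of PI3K. In the other pathway lists Insr (0.41 ± 0.09, adjusted p = 0.0156, edgeR) and Htra1 (0.40 ± 0.11, adjusted p = 0.0405) were higher in KO cells. Lower were Itga5 (-0.36 ± 0.08, edgeR adjusted p = 0.0156), the integrin beta 3 gene Itgb3 (-0.68 ± 0.17, adjusted p = 0.028) and the gelatinase gene Mmp2 (-0.58 ± 0.15, adjusted p = 0.0356). Pik3r1, Itgb3 and Mmp2 were picked for naming with their values known. All 7 calls were lost in an edgeR fit of only the 2 DIAM groups (adjusted p from 0.0655 to 0.1), which called 0 of all genes, and all 7 were made by DESeq2. Each was also lost in at least 1 of the 16 fits without 1 library, from 1 fit for Insr (without WT library 1 in DIAM, adjusted p = 0.0502) to 7 fits for Pik3r1 (highest adjusted p = 0.124, without WT library 2 in DIAM). As a check of the medium, 5 of 6 genes known to respond to glucocorticoids rose and 1 fell in each genotype, among them the kinase gene Sgk1, with log2 fold changes of 3.73 ± 0.09 and 3.68 ± 0.08. Of these 6 genes, 1 was called higher and 0 lower in KO than in WT cells in DIAM by edgeR, apart from the 7 calls above.

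**Figure D5:**
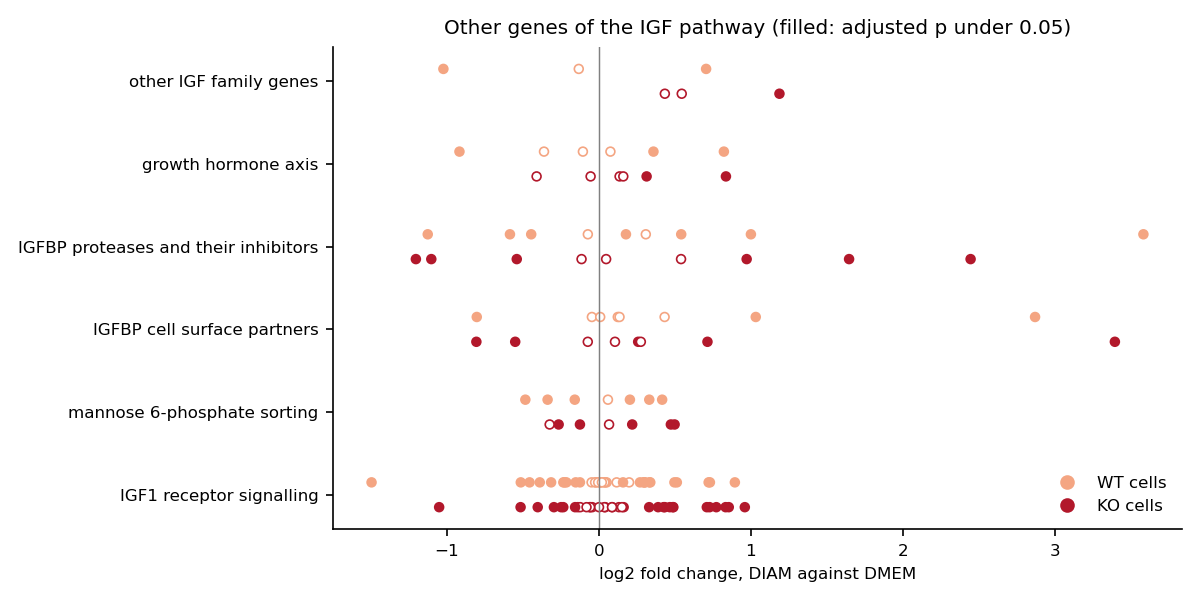
Log2 fold change with DIAM of every tested gene of the 6 pathway lists, 1 point per gene and genotype, filled where the adjusted p was under 0.05. Each list holds filled points on both sides of 0 in WT cells, from -1.50 for Irs1 to 3.58 for Stc2 in WT cells.

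The genes most alike to each member were found by Pearson's r of log2(CPM + 1) over the 16 libraries among 10583 genes with a mean of at least 5 CPM. All 16 points share the medium difference, so high values are common and carry no test. Igf1 was closest to Fcrl2 (r = 0.990), Cd72 (0.988) and Sfrp4 (0.988). Igf2r was closest to Eln, the elastin gene (0.986), Lclat1 (0.985) and Emilin1 (0.984), which encodes an elastic fibre protein. Igfbp2 was closest to Nedd9 (0.997), Farp1 (0.995) and Synpo (0.994), and Igfbp6 to Ctso (0.995), Cdkn1c (0.995) and Add3 (0.993). Igfbp3 was closest to Cyria (0.960) and Igfbp5 to Dok4 (0.895). The level genes Igf1r, Igfbp4 and Igfbp7 had lower best matches, Nfib (0.864), Sting1 (0.871) and Pon3 (0.865). With the group means removed, Igf2r was closest to Fbn1, the fibrillin 1 gene (0.947), Igfbp2 to Ephx2 (0.952), Igfbp3 to Eps8 (0.939) and Igfbp5 to Cmklr1 (0.937). Among the members themselves, none of the 36 pairs passed on such deviations (smallest adjusted permutation p = 0.408 for r and 0.289 for rho). Igfbp2 and Igfbp5 are neighbouring coding genes on chromosome 1 in the RefSeq annotation (GRCm38.p6), and their log2 fold changes with DIAM in WT cells were -3.15 and 0.75.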

How the data were processed

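RNA sequencing of 16 libraries, 4 per group, was analysed from the authors' deposited table. Per the submitters' processing notes, Salmon 1.9.0, DESeq2 1.46.0, R 4.4.2 and FastQC were used with the GRCm39 build. The annotation and the filters are not given in the sources used here. The deposited library columns are TPM per the labels. Because they sum to between 37221192 and 47626331, differ between libraries and are not whole, they were treated as estimated counts and rounded. The authors' deposited values are thus read as estimated counts, which is a form of output of Salmon, but the notes do not give the role of each tool. A test on TPM had been planned for that unit and was replaced by the count test planned for counts. The authors' deposited log2 fold changes and p-values, which cover 4 of the 5 comparisons (not DIAM against DMEM in KO cells), were used only for comparison, as an alternative. The authors' mean signal column was not used.

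Genes at 1 CPM or more in at least 4 libraries were kept (14217 genes, at least 99.8% of each library's counts). The test was the two-sided quasi-likelihood F test of edgeR 4.0.16 (R 4.3.3), with TMM scaling, robust estimates and 1 model of 4 groups with 12 residual degrees of freedom. It was tested on simulated data. P-values were adjusted by Benjamini-Hochberg over all genes tested. The SE was derived from the size of each log2 fold change and its F statistic (change over root F). For single genes, exact permutation tests compared 4 libraries with 4, and relations across libraries used 100000 permutations within groups. P-values measure the spread between these libraries. All libraries carry 1 batch label. Exon lengths came from the GENCODE annotation of GRCm38, matched by Ensembl ID for 9 of 9 genes. No gene coordinates are given, because the builds differ, and promoters are RefSeq's.

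The genes, lists and markers were chosen with earlier results of these data known. All 9 members were named, with up to 4 genes of smallest p per pathway list in WT cells and the closest genes by correlation, up to 3 for each member, from a mean of 5 CPM without predicted genes. The values of 1 gene that this rule names are not reported here. Marker lists covered smooth muscle, fibroblast, adipocyte, endothelial, macrophage, Schwann, mesothelial and erythroid cells. Their summed levels over all 16 libraries ranged from 2811 to 4011 CPM for fibroblast, from 56.8 to 3307 CPM for adipocyte, from 51.4 to 139 CPM for endothelial and from 0.0463 to 8.08 CPM for erythroid markers. The adipocyte sum was 56.8 to 102 CPM in the DMEM and 1539 to 3307 CPM in the DIAM libraries. Alternatives were median-ratio and quantile normalization, limma 3.58.1 on log2(CPM + 1), 0.1 or 5 as pseudocounts, no filter, a filter at 5 CPM, DESeq2 1.42.0, only the 2 groups compared, a replicate block, edgeR without robust estimates, the authors' values and leaving out each library.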

Additional observations from a re-analysis of the deposited data

Results flagged for a closer look

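Of 36 groups of 4 libraries (9 genes in 4 groups), 1 held a library far from the others by Dixon's criterion. For Igfbp2 in KO cells in DIAM, library 4 was at 107 CPM while the other 3 were at 135 to 140 CPM, a gap of 0.85 of the group's range, past the 95% critical value. Chance alone marks about 1 in 20 such groups. In that library the smooth muscle marker sum was 1325 CPM, the lowest of its group, and the mesothelial sum was 717 CPM, the highest of all libraries. Their part in the result was not tested. Without this library every member kept its call for DIAM against DMEM in KO cells.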

How the results depend on the processing

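Of 1242 recomputed log2 fold changes of single members, 1233 kept their direction and their side of the threshold or were uncalled in both, 7 moved past the threshold and 2 lost it, and no called value changed sign. The 5 member calls in WT cells held under all 12 alternatives and the 16 fits that each leave out 1 library. In KO cells the count of member calls ranged from 4 to 6, because Igfbp3 or Igfbp4 crossed the threshold as reported above. For KO against WT in DIAM the member count was 0 by edgeR, 2 in the authors' deposited table (Igfbp3 at 0.28, Igfbp6 at 0.33) and 0 to 1 when leaving out 1 library (1 without KO library 3 or 4 in DMEM). Over all genes, KO against WT in DIAM gave 1191 calls by edgeR, 1873 by DESeq2, 1810 in the authors' table, 0 with only the 2 groups compared, and 178 to 1480 without 1 library. Outside 1.5 times the main count were 299 without WT library 1, 316 without WT library 2, 275 without KO library 1 and 178 without KO library 2, all in DIAM. KO against WT in DMEM gave 0 by edgeR, 1 by DESeq2, 2 in the authors' table and 0 to 2 without 1 library (2 without KO library 1 in DMEM, 1 without WT library 3 in DIAM). The interaction gave 0 by edgeR, 225 by DESeq2, 234 in the authors' table, 1 by limma on log2(CPM + 5) and 0 to 1 without 1 library (1 without KO library 1 in DMEM). The cause was not tested. The replicate numbers were not taken as pairs, because the labels tie them to no animal and not every correlation of same-numbered deviations was over 0.1. The library names run through the genotypes in the same order in both media, so pairing by number remains possible and is not settled here. The correlations ran from -0.09 to 0.27 between media in WT cells and from 0.01 to 0.32 in KO cells, were over 0.1 for 3 of 4 numbers in each, and 4 of 8 libraries matched their own number best. With the replicate block, Igfbp4 fell with DIAM in KO cells (-0.20, edgeR adjusted p = 0.0293), which made 6 member calls there, and no other member call changed. Fits that leave out a library assume that the remaining 3 vary like the other groups. With 4 libraries a group, changes of Igfbp5, Igfbp2 and Igfbp3 are the least precise (SE 0.37, 0.25 and 0.22 for DIAM against DMEM in WT cells).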
